A study of Mus musculus with 9 samples.

Results

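Immediate-early genes are transcribed soon after a signal reaches the cell, by factors that are already present, and most of their RNAs are short-lived. Egr1, Egr2 and Egr3 encode zinc finger transcription factors, Nr4a1, Nr4a2 and Nr4a3 encode orphan nuclear receptors, and Klf6 and Klf10 encode Krüppel-like zinc finger factors. Ier2 encodes a nuclear protein of the same early response and Ier3 a stress-induced regulator of cell survival. In liver, Egr1 is known as a gene of the response to injury, the NR4A receptors as factors of fasting glucose production downstream of cAMP, Klf6 as a factor of activated stellate cells, and Klf10 as an early gene of TGF-beta signalling. These 10 genes, of 54532 in the series, were chosen by their FPKM in the libraries described here, compared across all 3 groups, so their values are a description and no p is given for any of them.

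The series is bulk RNA sequencing of mouse liver in 9 libraries, 3 in each of 3 groups. Male C57BL/6 mice aged 5 to 7 weeks were used. NC is the control group. APAP mice were given acetaminophen at 500 mg/kg into the peritoneum, and AMSC mice were given the same dose followed at once by 200000 adipose-derived mesenchymal stem cells through the tail vein. The paper states an overnight fast of all animals ahead of acetaminophen, without naming NC. The cells came from the inguinal fat of C57BL/6 mice, and liver was taken 6 h after acetaminophen. Acetaminophen at a high dose is turned into a reactive product in hepatocytes and kills them, and the groups ask what this does to liver RNA and how the given cells alter it. The replicate numbers are 1, 2 and 3 for NC and APAP and 2, 3 and 4 for AMSC, and the title of NC replicate 3 carries another date than the other 8 and ends in the number 1.

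Values are FPKM, fragments scaled to the length of the gene and, in this file, to a size factor of the library in place of its total. The libraries held 13418921 to 16210930 reads on genes. By the scale of the file, 1 read on a gene of 1 kb equals 0.0578 to 0.0599 FPKM in NC, 0.0744 to 0.0807 in APAP and 0.0630 to 0.0769 in AMSC. The summed FPKM of 6 hepatocyte markers was 43182 ± 1759 in NC, 62087 ± 4567 in APAP and 53825 ± 1203 in AMSC (SD, n = 3), with Alb the most abundant, which matches the label of liver. The 6 did not share a course: Alb and Serpina1a were highest in APAP, as the sum was, Apoa1 and Fgb had their highest means in AMSC, and Ttr had 3558 ± 386, 4019 ± 712 and 3571 ± 500.0 FPKM. Cyp2e1, an enzyme that makes the reactive product of acetaminophen, had 3408 ± 181, 847 ± 635 and 3619 ± 199. In bulk tissue, fewer cells of a type and less RNA per cell cannot be told apart.

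Of the 10 genes, 6 reached a mean of 1 FPKM across the series and entered the fit across 9699 genes: Egr1, Nr4a1, Ier2, Ier3, Klf6 and Klf10. The nearest to that limit were Ier3 inside it with a mean of 4.48 FPKM and Egr2 outside it with 0.923. Nr4a3 at 0.207, Nr4a2 at 0.128 and Egr3 at 0.0244 FPKM lay further below. A gene that is low in NC could pass only through the groups where it is high. None of the 10 overlaps another gene of the file, and coordinates are given on GRCm38.

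Egr1 (ENSMUSG00000038418, chr18:34859823-34864984, plus strand) binds GC-rich sites in promoters. Its level was 0.348, 0.387 and 0.466 FPKM in NC replicates 1 to 3, 196, 369 and 235 in APAP replicates 1 to 3, and 173, 105 and 157 in AMSC replicates 2 to 4. The groups did not overlap in any order: every APAP library stood above every AMSC library, and every AMSC library above every NC library. Egr1 was close to silent in control liver, with 26 to 36 reads in each NC library against 11773 to 20504 in each APAP library. The means were 0.4003 ± 0.0606, 267 ± 90.8 and 145 ± 35.4 FPKM (SD, n = 3), a ratio of 666 for APAP over NC, and the AMSC mean was 54.4% of the APAP mean.

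Egr2 (ENSMUSG00000037868, chr10:67535475-67542188, plus strand), a close relative of Egr1, had the same order of group means at a low level. Its level was 0, 0 and 0.0171 FPKM in NC, 1.01, 2.11 and 2.17 in APAP, and 1.19, 0.362 and 1.45 in AMSC. All APAP and AMSC libraries were above all NC libraries, and the APAP and AMSC groups overlapped. The 3 NC libraries held 1 read in all, against 234 in APAP and 154 in AMSC, a pooled ratio of 305 for APAP over NC with a 95% exact interval of 54.2 to 12106. Such intervals, here and for the other low genes, cover counting error only, not the spread between animals. For AMSC over APAP the pooled ratio was 0.588 (0.477 to 0.724).

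Egr3 (ENSMUSG00000033730, chr14:70077203-70082614, plus strand) was barely detected. It had 0 reads in every NC and AMSC library and 9, 0 and 4 reads in the APAP libraries, which is 0.152, 0 and 0.0675 FPKM. From 13 reads against 0, the lower limit of the exact 95% interval of the pooled ratio of APAP over NC was 3.98. Of the 3 Egr genes named, only Egr1 reached a high level at 6 h.

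Nr4a1 (ENSMUSG00000023034, chr15:101254269-101274795, plus strand) encodes the nuclear receptor also called Nur77. Its level was 0.154, 0.198 and 0.315 FPKM in NC, 39.5, 101 and 75.9 in APAP, and 11.4, 9.19 and 29.7 in AMSC. As for Egr1, the 3 groups were fully separate, with AMSC between the others. The means were 0.222 ± 0.0831, 72.2 ± 31.0 and 16.8 ± 11.3 FPKM (SD, n = 3). The APAP mean was 325 times the NC mean, and the AMSC mean was 23.2% of the APAP mean, the lowest share among the 6 genes fitted.

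Nr4a3 (ENSMUSG00000028341, chr4:48045153-48086447, plus strand) had the same order of groups at a far lower level. It had 0.0200, 0.00966 and 0 FPKM in NC, 0.797, 0.283 and 0.485 in APAP, and 0.116, 0.0129 and 0.144 in AMSC. In reads, the groups held 3, 124 and 25, so the pooled ratio was 53.9 (18.0 to 265) for APAP over NC and 0.180 (0.112 to 0.279) for AMSC over APAP. Every APAP library was above all others, while NC and AMSC overlapped.

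Nr4a2 (ENSMUSG00000026826, chr2:57106830-57124003, minus strand) stayed low in all groups. It had 0.0738, 0.114 and 0.0286 FPKM in NC, 0.367, 0.0795 and 0.238 in APAP, and 0.0620, 0.0569 and 0.131 in AMSC, and each pair of groups overlapped. With 15, 37 and 15 reads, the pooled ratio was 3.22 (1.72 to 6.31) for APAP over NC, 0.362 (0.185 to 0.676) for AMSC over APAP and 1.17 (0.531 to 2.56) for AMSC over NC. Within this receptor family the pooled ratios of APAP over NC thus ran from 3.22 to 321, and only Nr4a1 reached a high level.

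Ier2 (ENSMUSG00000053560, chr8:84661331-84662852, minus strand) was the only 1 of the 10 with a high level in control liver. Its level was 21.7, 20.02 and 21.8 FPKM in NC, 189, 550 and 472 in APAP, and 366, 166 and 397 in AMSC. Both treated groups were above NC in every library. The APAP and AMSC groups overlapped because APAP replicate 1, at 189 FPKM, lay inside the AMSC range. AMSC replicate 3, at 166 FPKM, was below every APAP library. The means were 21.2 ± 0.997, 404 ± 190 and 309 ± 125 FPKM (SD, n = 3), a ratio of 19.1 for APAP over NC.

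Ier3 (ENSMUSG00000003541, chr17:35821684-35822923, plus strand) had 0.636, 0.307 and 0.822 FPKM in NC, 9.29, 6.49 and 14.5 in APAP, and 3.12, 2.92 and 2.29 in AMSC. Its 3 groups were separate and the AMSC libraries lay close together, with a mean of 2.78 ± 0.431 against 10.1 ± 4.05 in APAP and 0.588 ± 0.261 in NC (SD, n = 3). The AMSC mean was 27.6% of the APAP mean and 4.72 times the NC mean. For Ier2 the AMSC mean was 76.7% of the APAP mean, with overlapping libraries, and the 2 genes were not tested against each other.

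Klf6 (ENSMUSG00000000078, chr13:5861482-5870394, plus strand) had 0.737, 0.909 and 0.860 FPKM in NC, 21.2, 24.4 and 23.1 in APAP, and 25.9, 36.8 and 24.2 in AMSC. It was the most even of the genes within APAP, with a coefficient of variation of 7.22% against 34.1% for Egr1 and 47.0% for Ier2. It was also the only 1 of the 10 with a higher mean in AMSC, 29.0 ± 6.87, than in APAP, 22.9 ± 1.65 (SD, n = 3), although AMSC replicate 4 lay inside the APAP range, so the groups overlapped. The NC mean was 0.835 ± 0.0885, so the ratios over NC were 27.4 for APAP and 34.7 for AMSC.

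Klf10 (ENSMUSG00000037465, chr15:38291463-38300706, minus strand) had the smallest ratio of the genes fitted. Its level was 4.14, 5.04 and 3.87 FPKM in NC, 10.1, 12.7 and 11.6 in APAP, and 7.86, 4.82 and 9.39 in AMSC. The APAP libraries were above all others, and AMSC replicate 3 lay inside the NC range. The means were 4.35 ± 0.612, 11.4 ± 1.31 and 7.36 ± 2.33 FPKM (SD, n = 3), a ratio of 2.63 for APAP over NC.

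**Figure D1:**
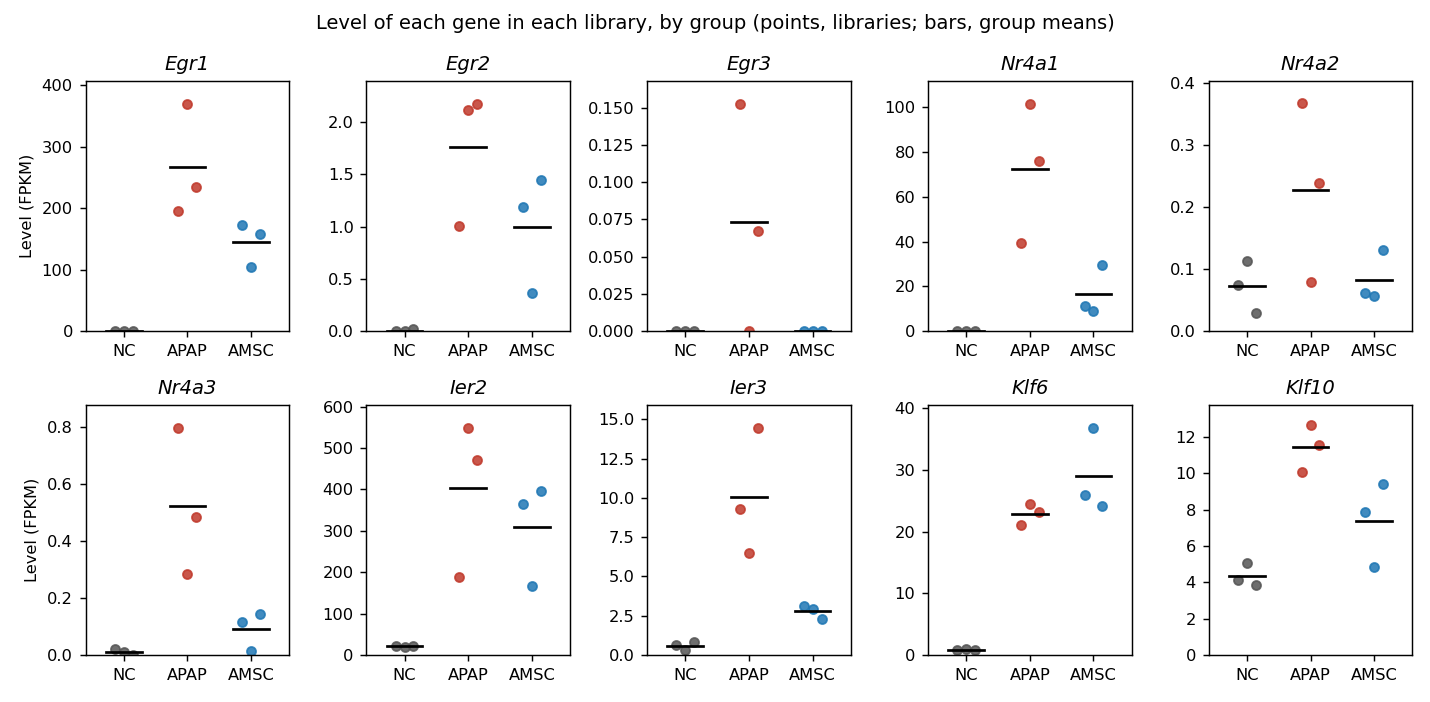
Level of each of the 10 immediate-early genes in FPKM, on a scale of its own for each gene. Points are libraries (3 in each of NC, APAP and AMSC) and bars are group means.

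The order of levels changed between groups. In NC, Ier2 stood first and Klf10 next, each clear of the rest, followed by Klf6, Ier3 and Egr1, and then by Nr4a1, and Ier3 overlapped each of the other 3. In APAP, Ier2 and Egr1 led with overlapping libraries, then came Nr4a1, then Klf6, then Klf10 and Ier3 with overlapping libraries, then Egr2 and, each overlapping the next, Nr4a3, Nr4a2 and Egr3. In AMSC, Ier2 and Egr1 again led and overlapped, Klf6 came next with a range that met that of Nr4a1, and Ier3 was below Klf10 in every library. Egr1 and Nr4a1 were below Klf6 in NC and above it in APAP, in every library.

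Within the treated groups, the same libraries stood out for several genes. APAP replicate 2 was the highest of its group for Egr1, Nr4a1, Ier2, Klf6 and Klf10, and APAP replicate 1 was the lowest for these 5 and for Egr2, yet the highest for Egr3, Nr4a2 and Nr4a3. AMSC replicate 3 was the lowest of its group for 7 genes and the highest for Klf6. Summed over the 10 genes, FPKM was 467, 1066 and 835 in APAP replicates 1 to 3 and 588, 325 and 622 in AMSC replicates 2 to 4. In NC the sum was 27.7 ± 0.5998 (SD, n = 3), most of it Ier2. NC replicate 3, with the other date, was the highest of its group for Egr1, Egr2, Nr4a1, Ier2 and Ier3.

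Markers of other cell types also differed between the libraries. The summed FPKM of 8 macrophage and Kupffer cell markers, with Cd5l the most abundant across the series but not in NC or AMSC, was 59.5, 54.8 and 110 in NC, 166, 81.9 and 200.8 in APAP, and 73.6, 49.8 and 45.5 in AMSC. Those of 8 neutrophil markers, led by S100a9 across the series but not in NC, came to 0.308, 0.498 and 1.81 in NC, 34.2, 7.51 and 15.8 in APAP, and 5.94, 5.84 and 4.27 in AMSC. Those of 5 erythroid markers, led by Hbb-bs, came to 137, 135 and 254 in NC, 1073, 306 and 1406 in APAP, and 312, 183 and 234 in AMSC. In all 3 lists APAP replicate 2 was the lowest of its group, as it was for Egr3, Nr4a2, Nr4a3 and Ier3, while it was the highest for Egr1, Nr4a1, Ier2, Klf6 and Klf10.

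The other lists are given by group. The sums for NC, APAP and AMSC were 40.0 ± 14.9, 56.4 ± 24.8 and 29.4 ± 1.84 for 8 endothelial markers, led by Eng. They were 27.2 ± 8.26, 43.4 ± 16.4 and 33.0 ± 8.98 for 8 stellate cell and fibroblast markers, led by Dcn, and 1.17 ± 0.392, 1.88 ± 1.02 and 1.73 ± 0.790 for 8 lymphocyte markers, led by Cd79a across the series but not in NC or AMSC (SD, n = 3). APAP replicate 2 was the lowest of its group here too, with 32.6, 25.5 and 1.18, and with 52.9 in the list that follows. For 6 markers of mesenchymal stem cells, led by Itgb1, the sums were 43.8 ± 5.0, 59.7 ± 7.51 and 46.3 ± 2.22, of which Itgb1, a gene of most cell types, made up 38.9, 49.4 and 40.2. The other 5 were Ly6a with 2.96, 6.75 and 3.57 FPKM, Cd44 with 0.605, 1.54 and 0.435, Pdgfra with 0.437, 1.17 and 1.09, Nt5e with 0.656, 0.571 and 0.887, and Thy1 with 0.241, 0.236 and 0.0955. No marker of any list was at 0 in all libraries. The part of these cell types in the levels of the immediate-early genes was not tested.

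Acetaminophen alone was compared with control by limma on log2(FPKM + 1), with p-values adjusted by the Benjamini-Hochberg method over the 9699 genes. A gene is called where the adjusted p does not exceed 0.05 and the log2 fold change is 1 or more in size. A p-value sets the group difference against the spread between these libraries only, moderated by limma across the genes tested. All 6 genes fitted were called higher in APAP, where 5.09% of all genes tested were called higher (494) and 2.8% lower (272). In all 6, every APAP library was above every NC library, as in 20.9% of genes tested, with 22.3% the other way, and over all 10 genes this held for 8, without Egr3 and Nr4a2. As the genes were chosen with this contrast in view, nothing is read from these counts.

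The log2 fold changes spread over a wide range. They were 7.53 (SE 0.22) for Egr1, 5.81 (0.30) for Nr4a1, 4.05 (0.36) for Ier2, 3.70 (0.11) for Klf6, 2.75 (0.26) for Ier3 and 1.22 (0.14) for Klf10. The 1 FPKM added before the log shrinks the values of genes that are low in NC: with 0.1 added in its place they were 9.01 for Egr1, 7.74 for Nr4a1, 4.62 for Klf6, 4.11 for Ier2, 3.89 for Ier3 and 1.38 for Klf10, so that Klf6 stood above Ier2. Under library-total scaling the median log2 fold change of all genes was −0.22, Klf10 came to 0.99 and was not called, and the split over all genes became 357 higher and 477 lower. Leaving out any 1 library kept all 6 calls.

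The comparison of AMSC with APAP asks how the given cells altered the response, and it uses the same APAP libraries as the first. It too was in view when the genes were chosen, so its counts are a description. Of the 6 genes, 1 was called, Ier3, which fell by 1.4955 (SE 0.25) on the log2 scale. Over all genes tested, 0.742% were called higher (72) and 1.22% lower (118). Nr4a1 had the larger difference, −2.12, but with an SE of 0.46 it was not called. The others had −0.85 (0.27) for Egr1, −0.61 (0.22) for Klf10, −0.34 (0.46) for Ier2 and 0.31 (0.17) for Klf6. Every AMSC library was below every APAP library for Egr1, Nr4a1, Ier3 and Klf10, as in 12.4% of genes tested, and 14.6% were the other way. Of the genes under the filter, Nr4a3 joined them, so that 5 of the 10 were separate in this direction.

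Few calls of this comparison held in every setting. The number of genes called, 190, was 105 when APAP replicate 3 was left out, and 101, 90 and 94 when AMSC replicate 2, 3 or 4 was left out in turn. Ier3 was not called without AMSC replicate 2 (−1.56), replicate 3 (−1.53) or replicate 4 (−1.40), while its size barely moved. Nr4a1 was called besides Ier3 without APAP replicate 1 (−2.50), and in place of it without AMSC replicate 4 (−2.60). Ier2 is the gene whose direction hung on 1 library: without AMSC replicate 3 its log2 difference was 0.06.

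AMSC against NC compares mice given the drug and the cells with control, and shares its libraries with the other comparisons. The genes were chosen with this contrast in view too, so here as well the calls are given and nothing is read from them. Of the 6 genes, 5 were called higher, with log2 fold changes of 6.67 (SE 0.18) for Egr1, 4.01 (0.16) for Klf6, 3.71 (0.30) for Ier2, 3.69 (0.36) for Nr4a1 and 1.26 (0.16) for Ier3. Klf10, at 0.61 (0.21), was not called. Among all genes tested 3.92% were called higher (380) and 2.09% lower (203), and library-total scaling gave 310 and 347. The same 5 genes, and Egr2 besides, were higher in every AMSC library than in every NC library, as in 23.2% of genes tested, with 20.3% the other way.

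**Figure D2:**
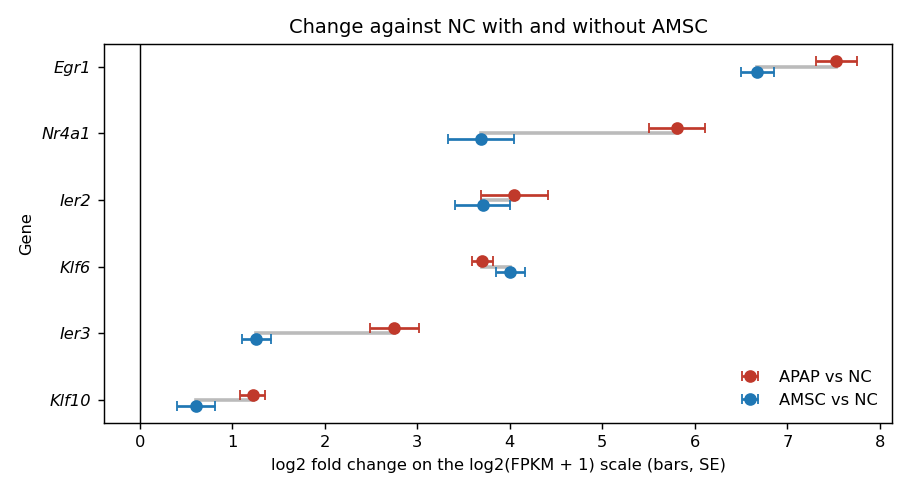
Log2 fold change over NC of the 6 immediate-early genes that entered the fit, in APAP and in AMSC (limma, 3 libraries per group). Error bars are standard errors, and grey lines join the 2 values of a gene.

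Side by side, the ratios of means over NC were 666 in APAP and 363 in AMSC for Egr1, 325 and 75.6 for Nr4a1, and 17.1 and 4.72 for Ier3. They were 19.1 and 14.6 for Ier2, 27.4 and 34.7 for Klf6, and 2.63 and 1.69 for Klf10. For the low genes the pooled ratios over NC were 305 and 180 for Egr2 and 53.9 and 9.71 for Nr4a3. AMSC means as shares of APAP means are a description here, as the genes were chosen by these values and not tested against each other. Nr4a1, Nr4a3 and Ier3 had AMSC means of at most 27.6% of their APAP means, and Egr3 had no reads in AMSC against 13 in APAP. Nr4a2, Egr1, Egr2 and Klf10 lay between, and Ier2 and Klf6 had the highest shares, 76.7% and 127%.

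The other genes of the pathway come from 7 lists, each described by its calls and its median log2 fold change, beside medians over all genes tested of −0.00 for APAP against NC, 0.01 for AMSC against APAP and 0.02 for AMSC against NC. Values in brackets are the SE and the adjusted p of limma, and every gene named as called had groups that did not overlap. All listed symbols were found in the file. Without the filter on low values, the calls named below were lost for Klf9, Ccl2, G6pc and Pck1 in APAP against NC, for Klf15, Sik1, Fosl1, Hbegf, G6pc and Tgif1 in AMSC against APAP, and for Tat and Id1 in AMSC against NC. With voom on recovered reads and no filter, they were lost for Klf9 and Pck1, for Hbegf, Fosl1 and Tgif1, and for Id1, in the same order of comparisons. Fosl1 also lost its call in AMSC against APAP with voom under the filter, and Tgif1 with a mean of 5 FPKM as the limit.

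Of 18 other Egr, Ier and Klf genes, 11 were tested, and 6 were called higher and 0 lower in APAP than in NC, with a median of 1.07. The largest were Ier5 at 2.15 (0.35, 0.0045), Klf11 at 2.0 (0.12, 6.5e-05), Klf9 at 1.4986 (0.32, 0.013) and Klf3 at 1.35 (0.18, 0.0021), of which Klf9 and Klf3 overlap other genes of the file. Against NC, the AMSC group had 3 called higher and a median of 0.39, with Klf9 at 2.05 (0.27, 0.0015), Klf11 at 1.84 (0.20, 0.00058) and Ier5 at 1.26 (0.12, 0.00032). Library-total scaling gave 4 higher and 1 lower in APAP against NC, and quantile normalization 6 and 1. Klf14 and Klf17 were at 0 in all libraries. In AMSC against APAP the median was −0.16 and the single call was Klf15, a metabolic regulator of liver, higher by 1.02 (0.13, 0.01). Its mean was 64.0 ± 15.9 FPKM in NC, 32.9 ± 4.14 in APAP and 67.3 ± 3.51 in AMSC (SD, n = 3), lowest in APAP, where Klf10 was highest. In APAP against NC its log2 fold change of −0.92 was not called. The call of Klf15 in AMSC against APAP was lost without APAP replicate 1 (0.92) and without AMSC replicate 3 (0.98), and without APAP replicate 1 the list had 1 call, lower, in its place.

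Of 35 other immediate-early genes, 32 were tested, and 29 were called higher and 0 lower in APAP than in NC, with a median of 2.70. Atf3 rose by 7.45 (0.27, 1.4e-05), Fos by 6.46 (0.28, 1.9e-05), Maff by 6.29 (0.35, 5.1e-05) and Btg2 by 6.04 (0.37, 8e-05). On the same scale Egr1 stood at 7.53 and Nr4a1 at 5.81, so they were among the largest of this response, and Klf10, at 1.22, was below the median of the list. In the AMSC group, 26 were called higher than in NC with a median of 2.06, led by Atf3 at 7.32 (0.12, 4.5e-08), Fos at 6.21 (0.23, 2.5e-06), Maff at 5.74 (0.12, 1.8e-07) and Jun at 5.64 (0.20, 2.3e-06). Atf3 and Jun overlap other genes of the file.

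In AMSC against APAP, 3 of these 32 genes were called lower and 0 higher, with a median of −0.30. Plk2, a stress kinase, fell by 1.15 (0.11, 0.0041), and Sik1, a kinase induced by cAMP, fell by 1.32 (0.19, 0.016). Fosl1, a partner of Jun, fell by 2.67 (0.52, 0.037), with means of 0.0577 ± 0.0412 FPKM in NC, 10.2 ± 6.52 in APAP and 0.552 ± 0.561 in AMSC (SD, n = 3). Fosl1 passed the filter only through APAP, where it was high, so its call is a description and nothing is read from it. Plk2 alone kept its call whichever library was left out. Sik1 lost it without APAP replicate 3 (−1.25). Fosl1 lost it without APAP replicate 2 (−2.28) or 3 (−2.42) and without AMSC replicate 2 (−2.63), 3 (−2.94) or 4 (−2.44). The list's number of calls was 5 without APAP replicate 1 and 1 without APAP replicate 3. Atf3 and Fos, the largest in APAP against NC, had log2 differences of −0.13 (0.27) and −0.26 (0.35) and were not called. These genes were not tested against Nr4a1 or Ier3. Of the 32 genes, 8 were lower and 1 higher in every AMSC library than in every APAP library, beside 12.4% and 14.6% of all genes tested.

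**Figure D3:**
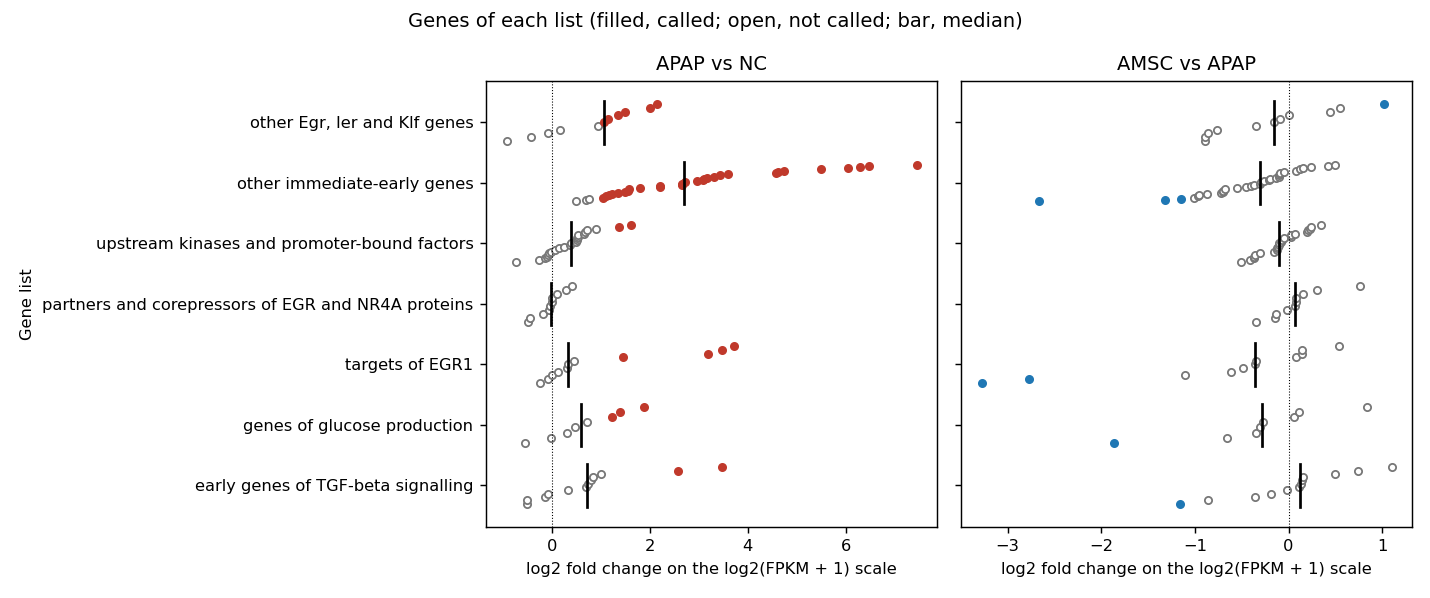
Log2 fold change of each gene tested in the 7 lists of related genes, for APAP against NC and AMSC against APAP (limma, 3 libraries per group). Filled points were called, open points were not, and bars are medians.

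The kinases and promoter-bound factors upstream of these genes act mainly through their activity, which RNA does not measure. Of 30 listed, 23 were tested. In APAP against NC, 2 were called higher, Mapkapk2, a kinase downstream of p38, at 1.61 (0.17, 0.00086) and Mef2d, a factor known to bind the Nr4a1 promoter, at 1.37 (0.19, 0.0023), and the median was 0.40. In AMSC against NC, Mapkapk2 was called at 1.26 (0.13, 0.00049), with a median of 0.30, and in AMSC against APAP limma called none of the 23, with a median of −0.10. With a pseudocount of 0.1 or with voom, the calls of this list were 4 in APAP against NC and 3 in AMSC against NC. Both genes overlap other genes of the file. Of 10 partners and corepressors of EGR and NR4A proteins, all were tested and limma called none in any comparison, with medians of −0.01, 0.07 and 0.15. Of the 23 in the upstream list, 14 were higher and 2 lower in every APAP library than in every NC library, beside 20.9% and 22.3% of all genes tested. In AMSC against NC these were 15 and 2, beside 23.2% and 20.3%.

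Of 15 genes known as targets of EGR1, 11 were tested. In APAP against NC, 4 were called higher and 0 lower, with a median of 0.33, among them Hbegf at 3.72 (0.39, 0.00082), Thbs1 at 3.18 (0.21, 0.00012) and Ccl2 at 1.45 (0.25, 0.0062). In AMSC against APAP, Hbegf, a growth factor of the EGF family, fell by 3.28 (0.40, 0.0081) and Thbs1, a matrix protein that activates TGF-beta, by 2.77 (0.22, 0.0018), with a median of −0.36 and no call in the other direction. Both calls held when any 1 library was left out, though that of Hbegf did not hold without the filter. Their means in NC, APAP and AMSC were 0.147 ± 0.0873, 15.9 ± 8.61 and 0.569 ± 0.243 FPKM for Hbegf and 0.0831 ± 0.0535, 9.09 ± 2.86 and 0.439 ± 0.156 for Thbs1 (SD, n = 3). Hbegf, Thbs1 and Ccl2 passed the filter only through APAP, where they were high, so their calls are a description and nothing is read from them. Thbs1 and Ccl2 overlap other genes of the file.

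In AMSC against NC, 2 targets of EGR1 were called higher, with a median of 0.35, among them Vegfa at 1.01 (0.13, 0.0012). The call of Vegfa was lost without NC replicate 1 (0.99) or 3 (0.92) and without AMSC replicate 3 (0.94), and with library-total scaling (0.82) or quantile normalization (0.94), which leaves 1 call in each case.

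Of 9 genes of glucose production known as targets of NR4A or CREB in liver, 8 were tested. In APAP against NC, 3 were called higher and 0 lower, with a median of 0.60: G6pc at 1.89 (0.34, 0.0069), Ppargc1a at 1.39 (0.19, 0.0025) and Pck1 at 1.23 (0.29, 0.019). Pck1 was not called without NC replicate 2 (0.90) or APAP replicate 2 (1.1955), with library-total scaling (0.97), with quantile normalization (0.98), and Ppargc1a overlaps other genes of the file. In AMSC against APAP the single call was G6pc, the enzyme of the last step of glucose release, which fell by 1.86 (0.19, 0.0047), and the median was −0.29. Its mean was 88.1 ± 47.9 FPKM in NC, 301 ± 39.5 in APAP and 83.1 ± 18.3 in AMSC (SD, n = 3). In AMSC against NC its log2 fold change was 0.03 (SE 0.34) and was not called, with the NC libraries spread widely. In AMSC against NC the single call was Tat at 1.56 (0.25, 0.0035), with a median of 0.31, and 2 were called without NC replicate 1.

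Klf10 is 1 of the early genes of TGF-beta signalling, and of 15 others listed, 12 were tested. In APAP against NC, 2 were called higher and 0 lower, among them Tgif1, a corepressor of SMAD proteins, at 2.58 (0.24, 0.00045), with a median of 0.72, and 4 were called without APAP replicate 1. In AMSC against NC, 3 were called higher, with a median of 0.74, among them Tgif1 at 1.42 (0.12, 0.00015) and Id1 at 1.29 (0.34, 0.025). Id1 was not called without NC replicate 1 (1.30), 2 (1.34) or 3 (1.22) or without AMSC replicate 2 (1.39) or 4 (0.86). In AMSC against APAP, Tgif1 fell by 1.16 (0.25, 0.049), and the median was 0.12. That call was lost without APAP replicate 2 (−0.89) or 3 (−1.16) and without AMSC replicate 2 (−1.16), 3 (−1.24) or 4 (−1.07), and the list then had 0 calls except without AMSC replicate 2. Tgif1 thus had the course of Klf10, APAP highest and AMSC between.

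The genes most like the 10 were sought by Pearson r on log2(FPKM + 1). Over the 9 libraries, against the mean of the 6 genes fitted, each scaled to the same mean and SD, the 5 closest were Gadd45a (0.995), Ppp1r15a (0.994), Gdf15 (0.994), Rassf1 (0.994) and Btc (0.993). Gdf15, a stress hormone, had means of 2.18 ± 1.15 FPKM in NC, 431 ± 122 in APAP and 169 ± 84.5 in AMSC (SD, n = 3). Gadd45a had 1.58 ± 0.420, 67.9 ± 24.2 and 25.1 ± 8.28. Over the 6 libraries of APAP and AMSC, the genes closest to Egr1 included Gm9800 (0.994), Pomgnt2 (0.991), Tra2b (0.989) and C2 (0.986), all different from the first 5. These are the highest of 9699 genes over few libraries that share the treatment, so they describe likeness only. Gadd45a, Ppp1r15a, Rassf1, Pomgnt2 and C2 overlap other genes of the file.

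The 250 bases before the RefSeq start sites of all 10 genes were searched on both strands for motifs of factors known to drive immediate-early genes (GRCm38.p6). Of the 10 genes, 6 were matched to such windows: Egr2, with 5 windows, Nr4a1, Nr4a2, Nr4a3, Ier3 and Klf6. Egr1, Egr3, Ier2 and Klf10 were not. Among 32851 windows of 27025 genes, the core of the cAMP response element, TGACG, was in 17.8%, and it was in 3 of the 5 windows of Egr2, with 2 matches each, and in those of Nr4a1, Nr4a2 and Nr4a3, with 4 matches each. The 3 windows of Egr2 overlap and hold the same 2 matches. The window before the start of Egr2 as the file gives it had no match to any motif. The full element, TGACGTCA, which holds the core on both strands, was in 1.55% and in none of the 6 genes. The EGR site GCGNGGGCG was in 4.7%, and in the windows of Nr4a1 and Nr4a2 with 1 match each. The CArG box, the site of serum response factor, was in 1.47%, and among the 6 genes only in Egr2. The AP-1 site TGANTCA, in 6.75%, and the NR4A site AAAGGTCA, in 1.34%, were in none of the 6, and the windows of Ier3 and Klf6 had no match at all. A match is a description of the letters, and the reads do not tell which start site was used.

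The windows of the NR4A family are shown because the 3 genes share 4 cores each while their levels differ by orders of size. They are written in the direction of transcription, with matches to the core and to the EGR site in capitals. Nr4a1 is at chr15:101266596-101266845 on the plus strand, Nr4a2 at chr2:57124004-57124253 on the minus strand, and Nr4a3, cut before its first exon so that 3 of its 4 cores are seen, at chr4:48045055-48045152 on the plus strand. The Nr4a1 start used here lies inside the gene as the file gives it. G and C made up 74.4%, 80% and 63.6% of the 3 windows, against a median of 52.4% over all windows, and both short motifs are rich in these letters.
Nr4a1: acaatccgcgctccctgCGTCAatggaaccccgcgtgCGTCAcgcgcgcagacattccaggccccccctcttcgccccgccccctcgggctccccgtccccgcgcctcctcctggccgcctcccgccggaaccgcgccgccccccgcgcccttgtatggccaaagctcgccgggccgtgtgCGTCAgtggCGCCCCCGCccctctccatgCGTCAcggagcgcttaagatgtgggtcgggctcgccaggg
Nr4a2: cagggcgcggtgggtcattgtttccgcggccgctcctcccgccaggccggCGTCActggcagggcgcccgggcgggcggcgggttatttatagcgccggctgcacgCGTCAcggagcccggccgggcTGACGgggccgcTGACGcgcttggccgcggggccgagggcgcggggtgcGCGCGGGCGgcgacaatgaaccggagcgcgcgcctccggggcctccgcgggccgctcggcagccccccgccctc
Nr4a3: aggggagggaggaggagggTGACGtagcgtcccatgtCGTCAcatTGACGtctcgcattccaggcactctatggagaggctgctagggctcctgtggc

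The 2 CArG boxes of Egr2 are shown as short stretches since they are the only ones found among the 6 genes. Both lie inside the gene as the file gives it, before later start sites. Capitals mark the boxes and, in the first, the cAMP core that follows it. Both are on the plus strand, at chr10:67537789-67537818 and chr10:67537474-67537503.
Egr2 first: tcctcagtCCATATATGGgcagcgaCGTCA
Egr2 second: ccgccactaccggatcttctCCTTTTTTGG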

How the data were processed

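RNA of 9 mouse livers was sequenced, and the authors deposited 1 table of FPKM values per gene with gene lengths, made on GRCm38. The aligner, counting tool and annotation release are not given in the sources used here; gene positions equal those of GENCODE M21 for all 10 genes. Multiplying FPKM by gene length gave whole multiples of 1 step per library (100% within 0.1), so reads were recovered, and the scale of each library matched its median-of-ratios size factor. Groups of 3 libraries were compared with limma 3.58.1 in R 4.3.3 (trend, two-sided) on log2(FPKM + 1), over the 9699 of 54532 genes whose mean reached 1 FPKM (29683 were at 0 everywhere), with Benjamini-Hochberg adjustment over all genes tested. Other steps used Python 3.11.15, pandas 2.3.3, numpy 2.4.6, scipy 1.17.1 and matplotlib 3.10.9. The fit was also run on simulated reads in which only genes above a set level in NC were changed. That run does not cover genes that are low in NC, such as Egr1 and Nr4a1. Intervals on pooled reads are exact conditional ones at 95%.

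The members and lists were chosen with earlier results of these data known. Named genes are all 10 members, up to 4 called genes of each list with the largest rise or fall in each comparison, the most abundant marker of each cell type, and the 5 genes most like the members by Pearson r. Of the genes this rule gives, 2 are not used here, and the hepatocyte and stem cell markers besides Alb and Itgb1 were named after their values were seen. Overlap between genes was read from their positions in the file. Promoter windows came from RefSeq on GRCm38.p6.

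Replicate numbers were checked as pairs on the residuals of the groups. For APAP and NC the correlations of equal numbers were 0.213, 0.160 and 0.378, each the best for its number. The main fit had no block, as the labels do not say that the numbers pair animals. The numbers are those of the sample descriptions, while the title of NC replicate 3 ends in 1, so whether it pairs with APAP replicate 3 is not settled by the labels. A block for the replicate number gave 781 genes called there, against 766.

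Alternatives tried were library-total scaling, quantile normalization, a pseudocount of 0.1, no filter, a mean of at least 5 FPKM, a single fit of all libraries, voom on the recovered reads, the replicate block, and leaving out each library in turn, which also covers NC replicate 3 with its other label date. Voom on the reads of all genes above 0 was chosen after seeing the data.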

Additional observations from a re-analysis of the deposited data

How the results depend on the processing

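Genes called in APAP against NC, 766, became 478 with a mean of at least 5 FPKM, 1197 with voom and 1791 with voom without a filter, the alternative chosen after seeing the data. In AMSC against NC, 583 became 915 with a pseudocount of 0.1, 968 with voom and 1485 with voom without a filter.

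In AMSC against APAP, 190 genes became 21 without a filter, 102 with a mean of at least 5 FPKM, 296 with voom, and 90 to 229 when 1 library was left out. The single member called, Ier3, became 2 members with library-total scaling, quantile normalization, the single fit and voom, each adding Nr4a1, and 0 without a filter and with voom without a filter. With a mean of at least 5 FPKM it was also 0, as Ier3 was not tested there. Leaving out 1 library gave 0 to 2 members. With the replicate block, 335 genes and 4 members were called (Egr1, Ier2, Ier3 and Nr4a1). These groups share only the numbers 2 and 3, with correlations of −0.104 and −0.293, so the numbers do not pair them. Klf15 (0.94) was not called with this block, and the list's single call was lower. The block gave 611 genes in AMSC against NC, where the correlations were −0.199 and −0.309, without the call of Id1 (0.87), and in APAP against NC it changed no member's call. The log2 difference of Ier2 in AMSC against APAP, −0.34, ran from −0.82 to 0.0568 when 1 library was left out, and changed sign only without AMSC replicate 3.

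Of 267 values of members' log2 fold changes, 251 kept their reading, 9 gained a call, 6 lost 1 and 1 changed sign. Of 315 list counts under alternatives, 264 stayed within 1.5-fold. Without a filter, limma called Egr2 higher in APAP than in NC (1.43) but not in AMSC than in NC (0.95). Voom without a filter called Egr2 (7.07) and Nr4a3 (5.34) higher in APAP than in NC and Egr2 (6.17) higher in AMSC than in NC.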
